A study of Mus musculus with 18 samples.

Results

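The cyclic nucleotide phosphodiesterase genes of brown adipocytes were described over 6 groups of libraries. The 10 genes were Pde3a, Pde3b, Pde4a, Pde4b, Pde4d, Pde7a, Pde7b, Pde8a, Pde8b and Pde10a. They were taken by symbol from a table of 17672 genes. All 10 were listed, and all 10 were among the 10178 genes that passed the filter on low counts. RNA was sequenced from an immortalised mouse brown preadipocyte line differentiated in culture. The study names SV40 large T antigen for its line BAT-LgT. It describes the knockdown cells as grown in a similar way, with indomethacin added early in differentiation. All cells carried a stable lentiviral shRNA to Abhd5, which encodes an activator of the triglyceride lipase ATGL, and, under a promoter induced by doxycycline (Dox), an ABHD5 construct with an mCherry tag that escapes the shRNA. The groups without Dox were labelled ABHD5 KD, and those that had received Dox, at 1 µg/ml over 24 to 48 h, were labelled WT. In each state, cells were treated for 3 h with the vehicle DMSO, with 10 nM of the β-adrenergic agonist isoproterenol (ISO), or with 20 µM of SR-3420, a synthetic ABHD5 ligand that activates lipolysis directly. Each of the 6 groups had 3 libraries. The line is a cultured model, and the rescued state holds a tagged transgene over a remaining knockdown.

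Phosphodiesterases end cyclic nucleotide signals by hydrolysing cAMP, cGMP or both. In brown adipocytes, β-adrenergic receptors raise cAMP through Gs and adenylyl cyclase, and cAMP activates protein kinase A (PKA), which phosphorylates perilipin and so frees ABHD5 to activate ATGL. The PDE3 enzymes act on cAMP and are inhibited by cGMP, and PDE3B is the form through which insulin lowers cAMP in adipocytes. The PDE4, PDE7 and PDE8 families are specific for cAMP, and PDE10A hydrolyses both cAMP and cGMP. Enzymes that break down cAMP can serve as negative feedback on the agonist that raised it.

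The genes spanned 47535 (Pde4a) to 1301807 bases (Pde4d) of mouse build mm9. Pde10a lies on chromosome 17 at chr17:8719666-9179513, Pde3b on chromosome 7 at chr7:121558768-121681451, Pde4b on chromosome 4 at chr4:101927544-102279867 and Pde4d on chromosome 13 at chr13:109444371-110746177, all on the plus strand. The length counted was 83.7 to 95.9% of each span, and 92.8 to 99.7% of the span less its annotated exons, so the counted lengths are close to the intron lengths. The methods name counting over genes, and how many of the reads lay in exons was not tested, so whether the values follow unspliced RNA or mature mRNA cannot be told from these lengths alone. The table lists no other gene within the span of any of the 10. GENCODE places 3 pseudogenes on the other strand within Pde10a, 1 processed transcript on the other strand within Pde7a (13208 bases) and another within Pde8b (825 bases), and 1 pseudogene on the other strand within each of Pde7b and Pde8a. No source states that strand was used, and reads of these could not be told apart from those of the phosphodiesterase gene. Pde4d holds 4 small annotated genes on its own strand, and Pde7b holds 2.

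Because cAMP acts on transcription through CREB-family factors, the 250 bases before each listed start were searched for the cAMP response element TGACGTCA, which reads the same on both strands, and for its core TGACG on either strand (CGTCA on the other). The full element contains the core, so every window with the first also holds the second. TGACGTCA was found in 2 of the 10 windows, those of Pde7a and Pde7b, against 2.24% of 17672 windows in all. TGACG was found in 4 of the 10, those of Pde3b, Pde7a, Pde7b and Pde8a, against 22.5% in all. The stretches around these matches are shown with the matched letters in capitals, from mm9 and 5′ to 3′ on the gene's strand. They lie at chr3:19211393-19211440 (Pde7a, minus strand, match from -98 to -91), chr10:20444963-20445010 (Pde7b, minus strand, -116 to -109), chr7:121558523-121558567 and chr7:121558602-121558646 (Pde3b, plus strand, -225 to -221 and -146 to -142) and chr7:88358617-88358661 (Pde8a, plus strand, -53 to -49), with -1 the base before the start.
Pde7a: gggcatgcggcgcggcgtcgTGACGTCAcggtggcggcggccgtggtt
Pde7b: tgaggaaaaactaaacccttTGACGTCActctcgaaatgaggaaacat
Pde3b, first match: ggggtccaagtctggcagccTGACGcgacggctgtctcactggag
Pde3b, second match: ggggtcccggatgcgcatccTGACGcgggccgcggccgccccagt
Pde8a: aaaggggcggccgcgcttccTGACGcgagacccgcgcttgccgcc

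The windows of Pde10a, Pde4b and Pde4d, which ISO raised in both states, held neither run of letters. Their last 60 bases before the listed start are given for comparison, from chr17:8719606-8719665, chr4:101927484-101927543 and chr13:109444311-109444370 of mm9, all on the plus strand. Each gene has other annotated starts, 12 in GENCODE for Pde10a, 13 for Pde4b and 20 for Pde4d, and the listed start is only 1 of them. RefSeq promoter windows of GRCm38.p6, from 250 bases before to 50 bases after each start, were present for 7 of the 10 genes in 17 windows. None of them held TGACGTCA (1.79% of 32851 windows did). TGACG was in at least 1 window of Pde4a, Pde4b, Pde8a and Pde8b, and in 20.8% of all windows. The first counts genes, some with more than 1 window, so it cannot be set directly against the share of windows. The Pde4b match, from -34 to -30 of another start than the listed one, is shown in capitals from chr4:102421501-102421545 of GRCm38.p6, plus strand. A match of letters is a description of the window and no measure of a factor's binding.
Pde10a: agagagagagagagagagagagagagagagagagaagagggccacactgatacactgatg
Pde4b: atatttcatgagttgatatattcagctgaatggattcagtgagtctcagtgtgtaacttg
Pde4d: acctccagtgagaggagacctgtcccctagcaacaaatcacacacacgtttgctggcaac
Pde4b, RefSeq start: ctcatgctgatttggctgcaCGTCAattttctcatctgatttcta

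Library totals ran from 689910 to 1956565 counts with a median of 1145729, and the 10 genes together took 0.125 to 0.283% of them, which is 1289 to 3833 counts a library. SR-3420 with Dox replicate 1 stood apart. Its 10 genes with most counts took 35.6% of its total, against 16.3 to 26.5% in the other 17 libraries, so the calls on SR-3420 with Dox are also given without it, with the cAMP list and the summed level added after its data were seen. Abhd5, the target of the knockdown, stood at 46.8 to 55.3 CPM (counts scaled to 1e6 per library with TMM factors) in DMSO without Dox and at 480.5 to 651 CPM in DMSO with Dox. This is the direction the labels give. ISO moved Abhd5 as well, to 129 to 172 CPM without Dox (2.84-fold, edgeR adjusted p = 3.34e-07) and to 801 to 853 CPM with Dox (1.44-fold, edgeR adjusted p = 0.00503), and these responses differed by -0.98 on the log2 scale (SE 0.23, edgeR adjusted p = 0.0194). All libraries with Dox lay above all libraries without it, and the part of this movement in the comparisons of responses between states was not tested. The counted length of Abhd5 is, like those of the 10 genes, shorter than its span, and whether the construct holds bases that were counted is not given in the sources used here. Which part of the rise came from the construct, and from exons or introns, was not tested, and it was not used as a measure of ABHD5 mRNA. Of 16 brown adipocyte markers, 14 were listed and Dio2 was at 0 in all 18 libraries. Their summed level was 3451 to 4063 CPM in DMSO, 4644 to 4927 in ISO and 4902 to 5244 in SR-3420 without Dox, and 4150 to 4616, 7314 to 8236 and 5949 to 7148 CPM in the same order with Dox. By median over all libraries, Lpl (1154 CPM), Plin1 (966) and Cd36 (803) were the highest of these markers. Ucp1 (1.64) and Cidea (18.2) were the lowest after Dio2, so the sum says little of them. Summed macrophage markers (6 of 7 listed) ran from 3.72 to 20.8 CPM, endothelial (5 of 5) from 6.75 to 25.6 and muscle (6 of 6) from 14.0 to 37.4, with Myod1, Myog and Myf5 at 0 throughout. Preadipocyte markers (7 of 7) summed to 103 to 172 CPM over all libraries, mostly from Pdgfrb.

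Levels of different genes were compared per kb of the counted length given for each. If reads in exons were counted as well, the order, sums and shares would change, since exons are a different part of each gene (13577 exon bases in Pde4d against 7747 in Pde7a), and this was not tested. In DMSO without Dox, Pde8a (1.98 CPM per kb), Pde3b (1.64) and Pde7a (1.49) were the highest of the 10, followed by Pde4d (0.823) and Pde4a (0.515), and the other 5 lay at 0.103 or lower. Pde4d, the longest gene, nonetheless gave 48.7 to 63.4% of the raw counts of the 10. The summed level was 6.75 ± 0.22 CPM per kb (SD, n = 3) in DMSO without Dox and 6.74 ± 0.58 in DMSO with Dox. With ISO it was 9.52 ± 0.69 CPM per kb without Dox and 12.2 ± 0.28 with Dox, each above every DMSO library of the same state. With SR-3420 it was 6.75 ± 0.53 CPM per kb without Dox, overlapping DMSO, and 7.98 ± 0.38 with Dox, where all 3 libraries (7.63, 8.39 and 7.92) lay above the DMSO libraries (6.29 to 7.39), also without replicate 1, the lowest of them. Pde3b made up 24.2 ± 2.63% of the summed level in DMSO without Dox and 28.0 ± 3.05% in ISO without Dox, and 26.0 ± 5.51% and 46.3 ± 4.57% with Dox. Pde10a was 5th in order of level with ISO in both states, and went from 1.21 ± 0.22 to 8.84 ± 0.09% of the sum without Dox and from 0.94 ± 0.11 to 5.17 ± 0.54% with Dox. These sums and shares are given without a test.

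**Figure D1:**
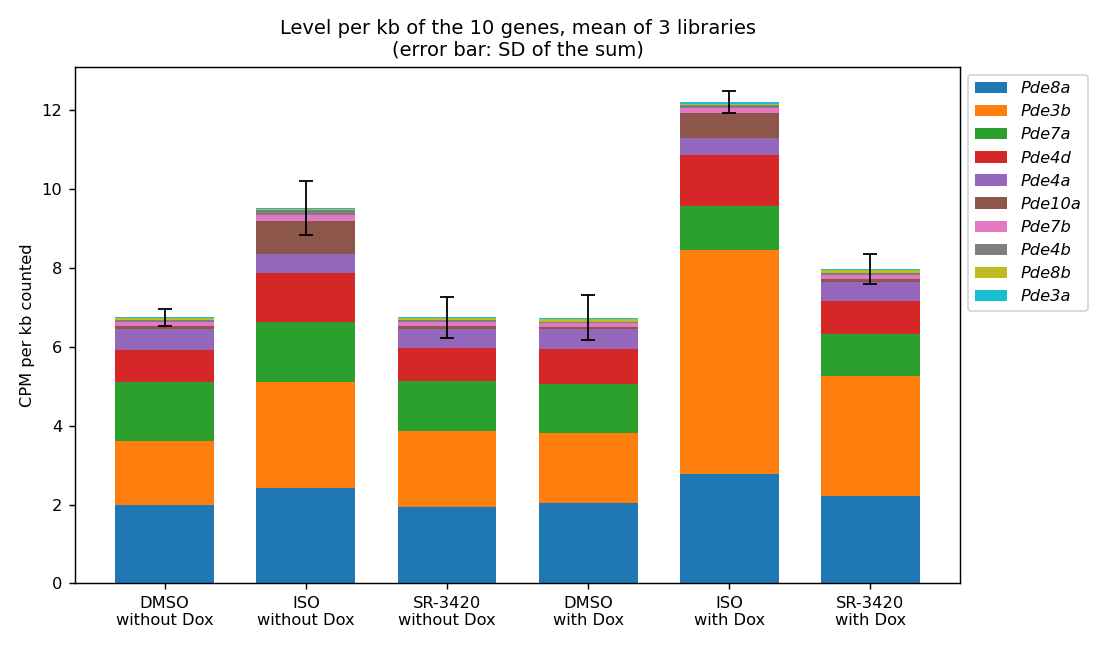
Stacked bars of the mean CPM per kb of counted sequence for the 10 genes in the 6 groups (3 libraries each), with error bars for the SD of the sum. The ISO bars reach 9.52 and 12.2 CPM per kb against 6.75 and 6.74 for DMSO, and the Pde3b segment of ISO with Dox is the tallest, 5.66 CPM per kb.

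The first question was which of these genes the agonist induced, and whether the knockdown state induced them too. Without Dox, ISO raised 4 of the 10, Pde10a, Pde4b, Pde3b and Pde4d, and none passed as lower (edgeR quasi-likelihood test, adjusted p of 0.05 or less over all genes tested). In that comparison 14.5% of all genes tested were called higher and 13.5% lower. With Dox, ISO raised 5 of the 10, the same 4 and Pde8a, and again none passed as lower, against 16.4% called higher and 16.1% lower of all genes tested. With a log2 fold change of at least 1 also required, 2 genes passed without Dox (Pde10a and Pde4b, against 5.82% of all genes tested) and 3 with Dox (Pde3b as well, against 6.22%). The median log2 fold change of the 10 genes was 0.43 without Dox and 0.47 with Dox, beside medians of -0.01 and -0.02 over all genes tested. The 5 endothelial markers moved with ISO as well, at a summed 21.5 to 25.6 CPM against 6.75 to 17.1 in DMSO without Dox and 17.2 to 22.7 against 7.23 to 12.9 with Dox, mostly from Tek. The 7 preadipocyte markers moved the other way, from a summed 142 to 166 CPM in DMSO to 103 to 108 in ISO without Dox and from 152 to 172 to 104 to 150 with Dox, again without overlap. The part of either list in these results was not tested. In bulk libraries, fewer cells of a type and less RNA per cell cannot be told apart.

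PDE10A is a phosphodiesterase best known from the striatum of the brain. Without Dox, Pde10a stood at 44.1, 31.0 and 33.2 CPM in the DMSO libraries and at 346, 393 and 375 CPM in the ISO libraries. With Dox it stood at 22.9, 31.0 and 30.1 CPM with DMSO and at 299, 239.9 and 297 CPM with ISO. The ISO libraries lay far above the DMSO libraries in both states. The log2 fold change was 3.33 without Dox (95% interval 3.00 to 3.66, edgeR adjusted p = 3.38e-15) and 3.36 with Dox (3.02 to 3.69). The 2 responses differed by 0.02 on the log2 scale, with a 95% interval from -0.44 to 0.49 (edgeR adjusted p = 0.979). With SR-3420, Pde10a stood at 27.1, 28.8 and 25.7 CPM without Dox and 26.2, 29.6 and 35.7 CPM with Dox. The first set lay below all 3 DMSO libraries without passing the test (log2 fold change -0.43, edgeR adjusted p = 0.522), and the second overlapped DMSO.

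PDE4B and PDE4D are cAMP-specific enzymes, and their long forms are activated by PKA. Pde4b was a low gene, at 11 to 15 counts in the DMSO libraries without Dox. It stood at 9.71, 20.2 and 13.1 CPM with DMSO and 49.4, 47.2 and 30.5 CPM with ISO without Dox, and at 10.0, 7.23 and 10.0 CPM with DMSO and 24.0, 21.9 and 22.0 CPM with ISO with Dox. All ISO libraries lay above the DMSO libraries of their state, and the ISO libraries with Dox also lay below those without Dox. The log2 fold change was 1.59 without Dox (SE 0.30, edgeR adjusted p = 1.61e-04) and 1.28 with Dox (SE 0.32, edgeR adjusted p = 0.00284). The responses differed by -0.32 with an interval of -1.25 to 0.61 (edgeR adjusted p = 0.81), which is wide for this gene. SR-3420 gave 8.57 to 14.4 CPM without Dox and 6.94 to 14.8 CPM with Dox, both overlapping DMSO.

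Pde4d had the most counts of the 10 genes. Without Dox it stood at 997, 1095 and 859.9 CPM with DMSO and at 1474, 1507 and 1500.3 CPM with ISO. With Dox it stood at 951, 1159 and 1052 CPM with DMSO and at 1382, 1641 and 1665 CPM with ISO. The groups did not overlap in either state, and the changes were smaller than those of Pde4b, at 1.52-fold without Dox (log2 0.60, SE 0.16, edgeR adjusted p = 0.00429) and 1.48-fold with Dox (log2 0.57, SE 0.15, edgeR adjusted p = 0.00531). Both calls were lost when libraries were scaled by their totals alone (log2 0.43 and 0.44, edgeR adjusted p = 0.0786 and 0.0710), a scaling that moved the median of all genes tested to -0.18 and -0.15. The responses differed by -0.03 with an interval of -0.48 to 0.41. SR-3420 gave 922 to 1116 CPM without Dox and 861 to 1139 CPM with Dox, with log2 fold changes of 0.03 (-0.28 to 0.35) and -0.06 (-0.38 to 0.26). Pde4a, the third cAMP-specific PDE4 gene measured, ran from 10.2 to 26.5 CPM over all libraries. Its groups overlapped in every comparison, with ISO log2 fold changes of -0.16 (-0.83 to 0.52) and -0.28 (-0.93 to 0.38) without and with Dox.

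PDE8A is a cAMP-specific enzyme of high affinity. Pde8a stood at 217, 219 and 236 CPM with DMSO and 264, 259.8 and 302 CPM with ISO without Dox, and at 215, 228 and 251 CPM with DMSO and 275, 341 and 331 CPM with ISO with Dox. The groups did not overlap in either state. The call was made with Dox (log2 0.45, SE 0.12, edgeR adjusted p = 0.0057) and not without it (log2 0.30, SE 0.13, edgeR adjusted p = 0.0768). The difference itself was 0.15 (-0.21 to 0.51, edgeR adjusted p = 0.755), so the responses were not shown to differ. With library totals the call with Dox was lost as well (log2 0.32, edgeR adjusted p = 0.126).

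**Figure D2:**
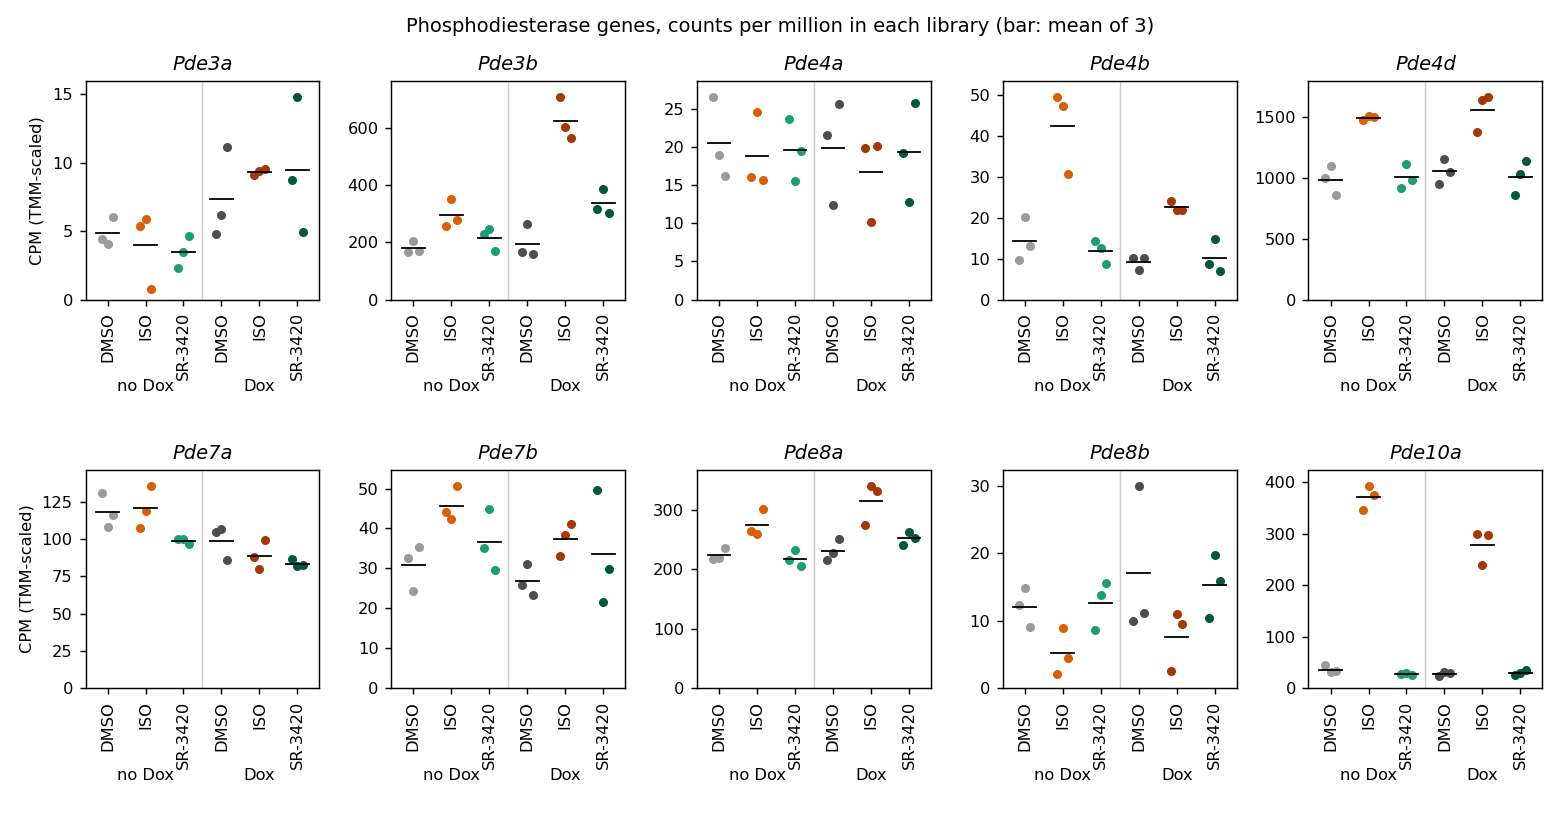
CPM of each of the 10 genes in each of the 18 libraries (points) with the mean of 3 libraries (bar), by treatment, without Dox on the left and with Dox on the right of each panel, each vertical axis starting at 0. Pde10a and Pde4b are high in the ISO libraries of both states, while Pde3b is highest in ISO with Dox (565 to 707 CPM).

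The second question was which responses differed between knockdown and rescue. Pde3b was the only one of the 10 whose ISO response passed that test, where 1.61% of all genes tested passed with a larger response with Dox and 0.57% with a smaller one. Without Dox, Pde3b stood at 168, 205 and 169 CPM with DMSO and at 257, 352 and 279 CPM with ISO. With Dox it stood at 165, 263 and 158 CPM with DMSO and at 707, 603 and 565 CPM with ISO. ISO libraries lay above DMSO libraries without Dox and further above with Dox, and the lowest ISO library with Dox exceeded the highest of any other group. The log2 fold change was 0.72 without Dox (SE 0.18, edgeR adjusted p = 0.00345), or 1.64-fold, and 1.69 with Dox (SE 0.17, edgeR adjusted p = 1.26e-08), or 3.22-fold. The difference was 0.97 on the log2 scale (SE 0.25, 95% interval 0.46 to 1.48, edgeR adjusted p = 0.0333), just under the log2 difference of 1 that 0.894% of all genes tested passed with.

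In the reported fit this call was close to the threshold. It was lost in 8 of 12 fits that left out 1 library, namely each of the 3 DMSO libraries without Dox, ISO without Dox replicates 1 and 3, DMSO with Dox replicates 1 and 3, and ISO with Dox replicate 1, with differences over all 12 from 0.85 to 1.23 and adjusted p from 0.00404 to 0.111. It was also lost with upper-quartile factors (0.90, edgeR adjusted p = 0.0547) and with library totals (1.02, edgeR adjusted p = 0.0523). It was kept in the other 7 of 9 settings that left out no library of the comparison, DESeq2 (0.98, adjusted p = 0.00656) and limma-voom (1.01, adjusted p = 0.0252) among them. The lowest adjusted p of these settings was 1.58e-04 (edgeR), with the replicate number as a block. Same-numbered libraries of this comparison did not correlate above 0.1 in every pair. The summed brown adipocyte markers moved the same way (7314 to 8236 CPM in ISO with Dox against 4644 to 4927 in ISO without Dox), and their part in the result was not tested.

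**Figure D3:**
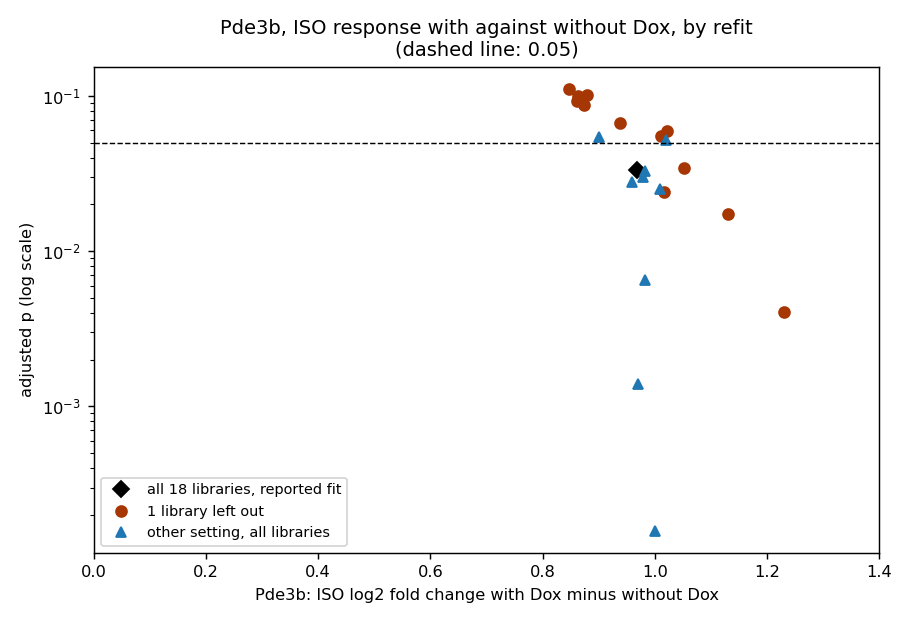
Each point is a fit of the Pde3b difference between the ISO responses with and without Dox: the difference of log2 fold changes on the horizontal axis, its adjusted p on a log scale on the vertical axis, and the 0.05 threshold as a dashed line (diamond, the reported fit, circles, 1 library left out, triangles, other settings). The difference stays between 0.85 and 1.23 in all fits with 1 library left out, while 8 of those 12 lie above the dashed line.

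Pde3b also responded to SR-3420 in the rescued state. With SR-3420 it stood at 317, 388 and 303 CPM with Dox, above all 3 DMSO libraries, and at 229, 245 and 171 CPM without Dox, overlapping DMSO. With Dox this was a 1.73-fold rise (log2 0.79, SE 0.18, edgeR adjusted p = 0.00302), and 0.83 (edgeR adjusted p = 0.0069) without SR-3420 with Dox replicate 1, the library that stood apart. Pde3b was the 1 gene of 10 called there, where 6.53% of all genes tested were called higher and 3.37% lower (1008 genes in all, or 1568 once replicate number was a block). It did not reach a log2 fold change of 1, which 2.1% of all genes tested did when higher. Without overlap it was again the 1 gene higher, against 13.6% of all genes tested. The summed brown adipocyte markers were also higher in these libraries (5949 to 7148 CPM against 4150 to 4616 in DMSO with Dox), and their part in this result was not tested. Without Dox the log2 fold change was 0.26 (-0.11 to 0.63, edgeR adjusted p = 0.751). The difference between the SR-3420 responses was 0.53 (0.01 to 1.04), with an unadjusted p of 0.0441 and an edgeR adjusted p of 0.40. In order of mean level, ISO with Dox (625 CPM) stood apart, and SR-3420 with Dox (336) and ISO without Dox (296) overlapped. The 3 lowest groups, SR-3420 without Dox (215), DMSO with Dox (196) and DMSO without Dox (181), overlapped among themselves. All SR-3420 libraries without Dox lay below those of ISO without Dox, while DMSO with Dox replicate 2 (263 CPM) lay above ISO without Dox replicate 1 (257). Both comparisons with Dox share the same 3 DMSO libraries, in which replicate 2 (263 CPM) lay well above the other two. Pde3a, the other PDE3 gene, was at 1 to 15 counts a library and passed no test. Its ISO log2 fold changes were -0.39 (-1.65 to 0.87) and 0.46 (-0.47 to 1.38) without and with Dox.

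SR-3420 without Dox changed none of the 10 genes by edgeR, DESeq2 or limma-voom, where edgeR called 0.698% of all genes tested higher and 0.0688% lower (78 genes in all, or 238 once replicate number was a block). Below DMSO without overlap were 2 of the 10, Pde10a and Pde7a, against 6.29% of all genes tested. At an unadjusted p under 0.05 edgeR gave 1 of the 10, Pde10a, against 8.77% of all genes tested. With Dox the genes other than Pde3b had SR-3420 log2 fold changes from -0.25 (Pde7a) to 0.48 (Pde3a), and none passed. Without replicate 1 of SR-3420 with Dox they ran from -0.28 (Pde7a) to 0.53 (Pde3a), again with none passing, and Pde7b, whose highest library that is (49.7 CPM against 21.7 and 29.7), went from 0.36 to -0.05. The shares of all genes tested called there were then 4.58% higher and 1.64% lower. The SR-3420 responses with and without Dox differed for none of the 10 by edgeR, against 0.54% of all genes tested with a larger and 0.216% with a smaller response with Dox. At an unadjusted p under 0.05 there were 2, Pde3b and Pde10a (0.59, 0.01 to 1.18, edgeR adjusted p = 0.407), against 12.1% of all genes tested. Without replicate 1 of SR-3420 with Dox these differences were 0.57 for Pde3b (edgeR adjusted p = 0.437) and 0.69 for Pde10a (edgeR adjusted p = 0.401). None of the 10 passed, against 0.242% of all genes tested with a larger and 0.0775% with a smaller response with Dox.

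**Figure D4:**
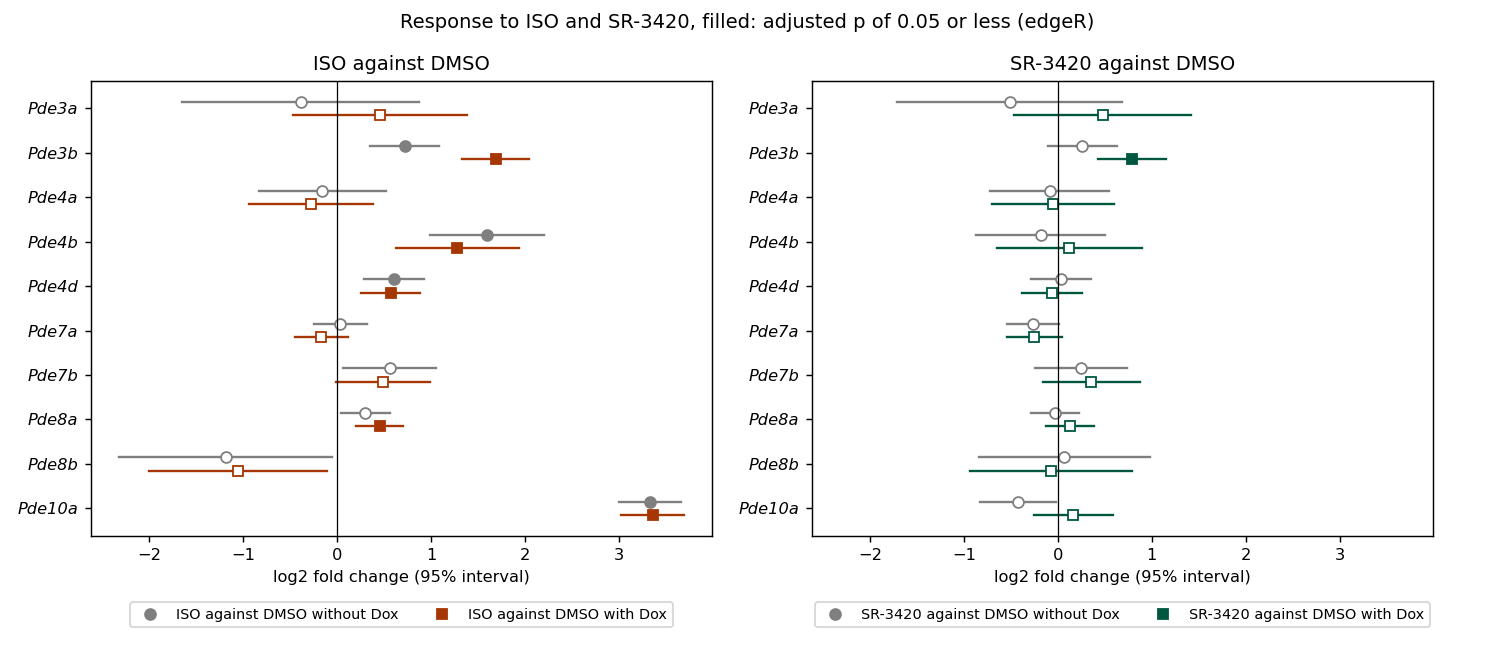
Log2 fold changes with 95% intervals for the 10 genes, ISO against DMSO on the left and SR-3420 against DMSO on the right, without Dox (circles) and with Dox (squares), filled where the edgeR adjusted p is 0.05 or less. The ISO values without and with Dox are 3.33 and 3.36 for Pde10a, 1.59 and 1.28 for Pde4b, 0.60 and 0.57 for Pde4d and 0.72 and 1.69 for Pde3b, and the only filled symbol on the right is Pde3b with Dox (0.79).

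In the DMSO libraries, Dox and the rescue it induces changed none of the 10 genes by edgeR, DESeq2 or limma-voom. All cells carried the construct, so Dox alone and the rescue cannot be told apart in any comparison of the states. Of all genes tested, edgeR called 1.09% higher and 0.0884% lower here. At an unadjusted p under 0.05 there was 1, Pde10a (log2 -0.44, -0.86 to -0.02, edgeR adjusted p = 0.478), against 9.84% of all genes tested. Its DMSO libraries did not overlap between states, at 31.05 to 44.1 CPM without and 22.9 to 30.99 CPM with Dox, a gap far smaller than the spread within either group. Pde7a was the other gene without overlap, at 108 to 131 CPM without and 85.8 to 106 CPM with Dox (edgeR adjusted p = 0.578). Lower without overlap were 2 of the 10 and 6.98% of all genes tested. Pde3b differed by 0.11 (-0.26 to 0.49), so the larger ISO response with Dox started from a level not shown to differ.

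**Figure D5:**
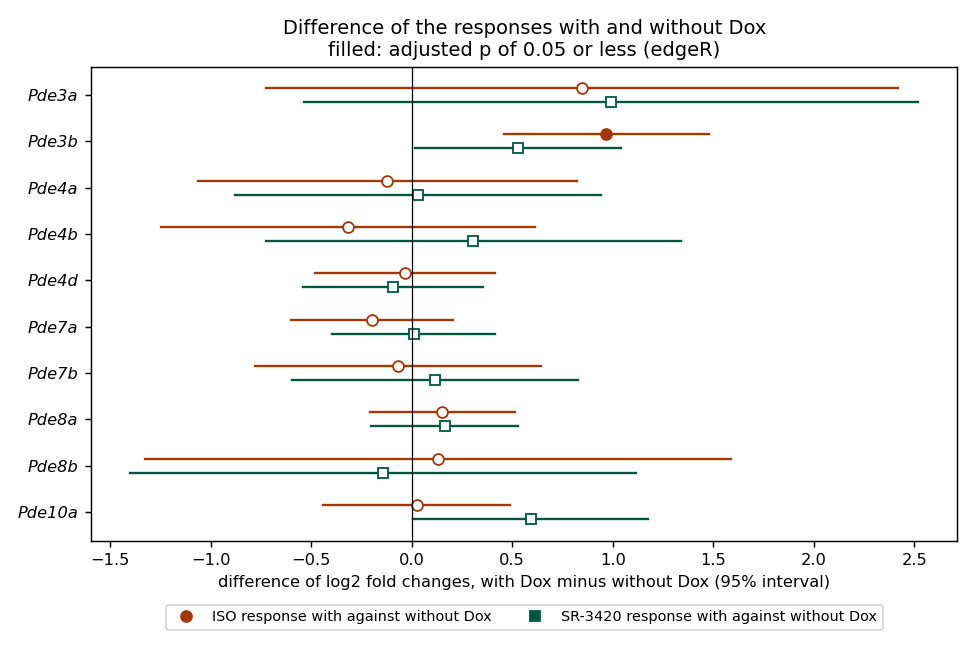
The response with Dox minus the response without Dox for each gene on the log2 scale with 95% intervals, for ISO (circles) and SR-3420 (squares), filled where the edgeR adjusted p is 0.05 or less. For ISO, 9 of 10 intervals include 0 and Pde3b (0.97, 0.46 to 1.48) is the only filled symbol, while the intervals of Pde3a and Pde8b are the widest.

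Pde7a, Pde7b and Pde8b, cAMP-specific genes like Pde8a, passed no test. Pde7a ran from 79.7 to 136 CPM with ISO log2 fold changes of 0.03 (-0.25 to 0.31) and -0.17 (-0.45 to 0.12), and Pde7b from 21.7 to 50.7 CPM. ISO libraries of Pde7b lay above DMSO libraries in both states, at 42.3 to 50.7 against 24.3 to 35.2 CPM without Dox and 33.1 to 41.1 against 23.4 to 31.0 CPM with Dox. Its log2 fold changes were 0.56 (0.06 to 1.06, edgeR adjusted p = 0.0888) and 0.49 (-0.01 to 0.99, edgeR adjusted p = 0.126). Counting Pde7b, 6 of the 10 genes were higher with ISO without overlap in each state, against 20% and 21.3% of all genes tested. Pde8b, the other PDE8 gene, had negative values with ISO. It stood at 14, 11 and 9 counts with DMSO and 2, 9 and 6 counts with ISO without Dox, and at 21, 29 and 10 counts with DMSO and 3, 14 and 10 counts with ISO with Dox. In CPM the ISO libraries lay just below the DMSO libraries without Dox (2.15 to 8.86 against 9.06 to 14.8), the 1 gene of 10 lower without overlap, against 19.8% of all genes tested, and overlapped them with Dox. The log2 fold changes were -1.19 (-2.32 to -0.05, edgeR adjusted p = 0.111) and -1.06 (-2.01 to -0.11, edgeR adjusted p = 0.0809). With the replicate number as a block, which paired the libraries of the comparison with Dox, the second passed (-1.14, edgeR adjusted p = 0.012), as it did with library totals (-1.20), with no filter on low counts (-1.03) and without DMSO with Dox replicate 1 (-1.43, edgeR adjusted p = 0.0303). It shrank towards 0 without DMSO with Dox replicate 2 (-0.44, edgeR adjusted p = 0.53), the library with 29 counts, and without ISO with Dox replicate 1 (-0.64, edgeR adjusted p = 0.331), the library with 3. It stayed negative in all 14 refits and passed in 4 of them.

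Of 14 other phosphodiesterase genes, all listed, 7 were tested. With ISO, 1 passed as higher and 1 as lower without Dox, beside 14.5% and 13.5% of all genes tested, and 1 as lower with Dox, beside 16.1%. Without Dox, ISO raised Pde5a, a cGMP-specific enzyme, from 9.30 ± 5.92 to 24.6 ± 7.4 CPM (SD, n = 3; log2 1.33, edgeR adjusted p = 0.012), and Pde6d, which encodes a prenyl-binding protein, fell from 15.9 to 36.4 CPM over the DMSO libraries to 11.8 to 13.8 CPM over the ISO libraries (log2 -0.95, edgeR adjusted p = 0.0308). With Dox, ISO lowered Pde2a, a cGMP-stimulated enzyme, from 40.5 ± 7.2 to 25.4 ± 1.3 CPM (log2 -0.71, edgeR adjusted p = 0.0107). None of the 3 differed between states by the test of the difference (Pde5a -1.12, edgeR adjusted p = 0.363, Pde6d 0.13, edgeR adjusted p = 0.94, Pde2a -0.82, edgeR adjusted p = 0.195), and none of the 7 passed with SR-3420 or Dox.

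The genes that make and read cAMP were taken from a list of 46, of which 34 were tested. ISO raised 11 and lowered 3 without Dox, beside 14.5% and 13.5% of all genes tested, and raised 12 and lowered 7 with Dox, beside 16.4% and 16.1%. SR-3420 raised 1 (Prkar2b) and lowered none without Dox, beside 0.698% and 0.0688% of all genes tested. With Dox SR-3420 raised 6 and lowered 1, beside 6.53% and 3.37%. Without replicate 1 of SR-3420 with Dox it raised 4 of 35 tested (Adcy5, Adcy6, Akap13 and Prkar2b) and lowered none, beside 4.58% and 1.64%. By role, with ISO and Dox, 3 of 7 adenylyl cyclases rose and 1 fell, 3 of 7 PKA subunits and inhibitors rose, 3 of 7 PKA anchors rose and 2 fell, and 2 of 8 CREB-family genes and coactivators rose and 2 fell. The G protein subunit Gnai2, 1 of 3 tested, fell (log2 -0.66, edgeR adjusted p = 0.00167), as did Rapgef3 (log2 -2.06, edgeR adjusted p = 0.00909), the 1 EPAC exchange factor tested. Adrb3 was the 1 β-adrenergic receptor tested and was higher (log2 1.76, SE 0.54, edgeR adjusted p = 0.0133), although its libraries overlapped. The 6 genes with the smallest p were the cyclases Adcy3 (log2 2.77) and Adcy6 (0.96), the PKA regulatory subunits Prkar2b (1.75) and Prkar1a (0.79), the anchor Akap13 (1.49), and Crem (1.69), a CREB-family gene known for an inducible repressor form. All 6 passed with adjusted p of 5.55e-06 or lower. Without Dox Adcy3 rose 5.29-fold (edgeR adjusted p = 2.04e-11), the ISO log2 fold changes of Adcy6, Prkar1a, Akap13 and Crem were 0.89, 0.65, 0.78 and 1.46, and that of Prkar2b was 0.02 (edgeR adjusted p = 0.933). In the test of the difference between ISO responses, 1 of the 34 passed as larger with Dox, Prkar2b (1.72, SE 0.21, edgeR adjusted p = 1.32e-05), beside 1.61% of all genes tested. As smaller 1 passed, the CREB coactivator Crtc3 (-1.56, SE 0.34, edgeR adjusted p = 0.0114), beside 0.57%. Prkar2b passed with SR-3420 in both states (0.62 and 1.15), and Pde3b with Dox.

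Across the 18 libraries, the genes most like each phosphodiesterase gene in log2(CPM + 1) were named as a description. For Pde10a these were Parl (Pearson r = 0.985), Cpne8 (0.983) and Lmbr1 (0.978). For Pde3b they were Ppp2r5a (0.963), Dgat1 (0.952) and Plin4 (0.945), for Pde4d Gm13152 (0.948), Tanc2 (0.947) and Bicd1 (0.943), for Pde4b Pld1 (0.931), Slc25a17 (0.916) and Socs2 (0.913), and for Pde8a Rb1cc1 (0.919), Lonp2 (0.902) and Ubr4 (0.902). Among the 10 genes themselves, Pde10a was most like Pde4d (0.907) and Pde4b (0.851), and Pde3b most like Pde8a (0.781). These libraries share the 6 groups, and the coefficients include the differences between treatments.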

How the data were processed

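The authors mapped reads to mm9 (STAR 2.4.2a), let HOMER keep 1 read for any given position and length, and quantified genes by iRNA-seq. Deposited values were raw counts per gene and library, with gene spans and counted lengths in bases. The kit was TruSeq, and strand use in counting is not given in the sources used here. Groups came from the sample titles, 3 libraries each. The study describes its replicates as biologically independent experiments, and the labels give only their numbers. The p-values measure the spread between these libraries.

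Counts were fitted with edgeR 4.0.16 (R 4.3.3) by the quasi-likelihood test on all 10178 genes kept by filterByExpr, with TMM factors and 1 mean per group over all 18 libraries. Tests were two-sided, and Benjamini-Hochberg adjustment covered every gene tested. The biological coefficient of variation was 0.133. Intervals are 95% and come from the quasi-likelihood F. Differences between responses are interaction contrasts. DESeq2 1.42.0 and limma-voom 3.58.1 were among the alternatives. All 10 members were described, other phosphodiesterase genes were named where they passed any test, cAMP pathway genes by smallest p in the ISO contrast with Dox or a difference of responses, and alike genes by the 3 highest correlations. Crtc3, Adrb3, Gnai2 and Rapgef3 were named after their values were seen. The members, lists and tests were chosen with earlier results of these data known.

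Same-numbered libraries deviated together in every pair (correlation above 0.1) for ISO with Dox (0.165 to 0.262), SR-3420 without Dox (0.137 to 0.263) and SR-3420 with Dox (0.123 to 0.246). Promoter stretches were read from NCBIM37 (mm9) and RefSeq (GRCm38.p6).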

Additional observations from a re-analysis of the deposited data

Results flagged for a closer look

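The Pde3b response to ISO differed between the states by the interaction test, by 0.97 on the log2 scale (with Dox 1.69, without Dox 0.72, edgeR adjusted p = 0.0333). All 3 ISO libraries with Dox (565 to 707 CPM) lay above all 3 ISO libraries without Dox (257 to 352 CPM), while the DMSO libraries of the 2 states overlapped. No other of the 10 genes differed in its response to either agent by this test. No group had 4 or more samples, so single libraries were not tested as outliers.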

How the results depend on the processing

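Of 70 gene and comparison values, 11 passed an adjusted p of 0.05, none of these changed direction under any alternative, and 7 passed in every refit. The exceptions were Pde4d with ISO in both states and Pde8a with ISO and Dox, each lost with library totals, and the Pde3b difference. Of the 59 values that did not pass, 31 changed sign in some refit and 3 passed in some. With a log2 fold change of at least 1 also required, the genes called fell to 2 (ISO without Dox), 3 (ISO with Dox), 0 (SR-3420 with Dox) and 0 (difference of ISO responses). The difference of ISO responses gave 0 genes with upper-quartile factors, with library totals only and at an adjusted p of 0.01, and 0 to 1 when 1 library was left out. In the 3 comparisons without calls, no alternative gave any. With at least 10 counts in every sample, Pde4b was not tested. The replicate block added Pde8a (0.30) and Pde8b (-1.28, edgeR adjusted p = 0.0235) without Dox, for 6 genes called, and Pde8b (-1.14) with Dox, for 6, and the Pde3b difference was 1.00 with it. It changed no other call of these genes. Over all genes it moved the calls to 34.4% (ISO without Dox) and 39.5% (ISO with Dox) of those tested, from 120 to 270 (Dox in DMSO), from 222 to 600 (difference of ISO responses) and from 77 to 339 (difference of SR-3420 responses). Over all groups, same-numbered libraries correlated at 0.0386 to 0.277, and 18 of 18 libraries correlated best with their own number. The cause was not tested. Library totals moved the median of all genes tested to as low as -0.21 and upper-quartile factors to as low as -0.14. Depth limits Pde3a (1 to 15 counts a library) and Pde8b (2 to 29).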
